A study of Mus musculus with 12 samples.

Results

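Genes of 8 secreted fibroblast growth factors used in the midgestation embryo were followed across Chd7 genotypes: Fgf3, Fgf4, Fgf8, Fgf9, Fgf10, Fgf15, Fgf17 and Fgf18. Every non-control probe whose transcript accession belonged to one of these symbols was taken. This gave 11 of the 39429 probes and 8 of the 32496 genes or identifiers on the array, and all 8 genes were among the 22563 tested. The samples were whole female mouse embryos at embryonic day 9.5 on a background described as mixed C3HeB/FeJ, obtained by crossing heterozygotes of the whirligig line and dissected free of the yolk sac. There were 4 arrays each of Chd7Whi/Whi (homozygous for the whirligig allele), Chd7Whi/+ (heterozygous) and Chd7+/+ (wild type), and no other allele or agent is named in the labels. Chd7 encodes a chromatin remodeller that is mutated in CHARGE syndrome. The mutation is present in every cell of the embryo, and expression was measured in the whole embryo, so that a smaller number of expressing cells and less RNA per cell cannot be told apart.

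Fibroblast growth factors are secreted proteins that bind receptor tyrosine kinases together with heparan sulfate and act mainly through the Ras and MAP kinase cascade, whose output is limited by feedback inhibitors such as the Sprouty proteins. In the embryo they are made by small signalling centres, among them the boundary between midbrain and hindbrain, the apical ridge of the limb bud, the pharyngeal arches and the tail bud. Fgf3 and Fgf10 belong to one subfamily and signal to epithelia through the epithelial form of Fgfr2, Fgf4 has a subfamily of its own among these genes, and Fgf8, Fgf17 and Fgf18 share another. Fgf9 acts on mesenchyme from epithelia, and Fgf15, the mouse counterpart of human FGF19, is made in the developing nervous system and later acts as a hormone of the gut.

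Of the 8 genes, 5 had an entry in the promoter table of RefSeq (assembly GRCm38.p6). The 250 bases before the annotated start are shown for Fgf10, the ligand whose signal differed past the threshold, and for Fgf3 and Fgf4, a pair of neighbours on chromosome 7, neither of which passed the threshold. The windows are chr13:118714449-118714698 for Fgf10, chr7:144838362-144838611 for Fgf3 and chr7:144861136-144861385 for Fgf4, all on the plus strand and written 5′ to 3′. Capitals mark matches to the GC box GGGCGG or to the CCAAT box, spelled CCAAT, on either strand, which do not overlap in these windows.
Fgf10: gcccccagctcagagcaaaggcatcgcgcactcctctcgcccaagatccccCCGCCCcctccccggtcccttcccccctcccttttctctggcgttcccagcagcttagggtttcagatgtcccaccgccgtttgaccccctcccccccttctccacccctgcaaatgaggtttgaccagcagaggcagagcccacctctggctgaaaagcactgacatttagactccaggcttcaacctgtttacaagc
Fgf3: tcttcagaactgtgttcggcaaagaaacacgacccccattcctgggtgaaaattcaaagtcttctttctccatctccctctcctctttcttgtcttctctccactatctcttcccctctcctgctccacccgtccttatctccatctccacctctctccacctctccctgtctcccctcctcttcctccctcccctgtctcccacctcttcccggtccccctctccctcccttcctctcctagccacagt
Fgf4: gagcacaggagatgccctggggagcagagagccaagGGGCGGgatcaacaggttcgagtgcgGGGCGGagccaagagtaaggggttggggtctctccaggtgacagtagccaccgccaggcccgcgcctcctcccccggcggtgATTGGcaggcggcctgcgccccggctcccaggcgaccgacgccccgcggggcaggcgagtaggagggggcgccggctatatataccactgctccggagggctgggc
The Fgf3 window held 4 CpG dinucleotides and no match to any motif searched, the others being the TATA box TATAAA and the palindromic E-box, spelled CACGTG. The Fgf4 window had 21 CpG dinucleotides, GGGCGG at 214 and 188 bases before the start and CCAAT in reverse at 106 bases before it. In the Fgf10 window there were 8 CpG dinucleotides and 1 GGGCGG, in reverse, at 199 bases before the start. Over 32851 promoter windows of this length, 32.7% held the GC box, 33.8% the CCAAT box, 12.4% the TATA box and 6.02% the E-box, and the median was 6 CpG dinucleotides (interquartile range 2 to 16). These matches describe the letters only, and the array gave no measurement of binding at these starts.

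Values below are log2 of the processed signal of a spot relative to the 75th percentile of its array, so that 0 is the signal at that percentile. They compare arrays for 1 probe and not 1 gene with another. The 75th percentile of the 12 arrays lay between 1095 and 1721 intensity units, 69.1% to 75.7% of probes were well above background, and over the tested genes r was 0.986 to 0.995 for arrays of 1 genotype and 0.983 to 0.994 for arrays of different genotypes. Chd7 itself is not analysed here, because no accession of a probe led to it. Marker levels of other tissues differed between some arrays. Chd7Whi/+ replicate 1 stood apart in the summed signal of 8 tail bud and presomitic mesoderm markers, at 884% of the 75th percentile against 223% to 292% on the other Chd7Whi/+ arrays, 201% to 230% on Chd7Whi/Whi arrays and 235% to 269% on Chd7+/+ arrays. The brachyury gene T read 1.11 on that array, against -1.83 to -1.55 on the other Chd7Whi/+ arrays. Summed yolk sac markers ranged from 430% to 7666% on Chd7Whi/Whi arrays, the highest being replicate 1, from 1372% to 3155% on Chd7Whi/+ arrays and from 608% to 3270% on Chd7+/+ arrays.

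Fgf10, a ligand of limb, lung, ear and second heart field mesenchyme, was the ligand that fell in homozygous embryos. Its probe read -3.63, -3.93, -4.19 and -3.91 on the Chd7Whi/Whi arrays, -3.27, -3.13, -3.53 and -3.01 on the Chd7Whi/+ arrays, and -2.46, -2.74, -2.68 and -2.38 on the Chd7+/+ arrays. The 3 genotypes did not overlap: each homozygous array lay below each heterozygous array, and each heterozygous array below each wild-type array. On the linear scale the geometric mean was 6.62% of the 75th percentile in Chd7Whi/Whi, 10.6% in Chd7Whi/+ and 16.9% in Chd7+/+ embryos. In homozygotes Fgf10 was thus 2.55-fold lower than in wild type, a log2 fold change of -1.35 ± 0.15 (SE, 95% confidence interval -1.67 to -1.03; limma, adjusted p = 0.00128), the rank of its p-value being 18 among all tested genes. It was the single ligand called among 8 in this comparison, in which 1.35% of all tested genes were called at an adjusted p under 0.05.

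**Figure D1:**
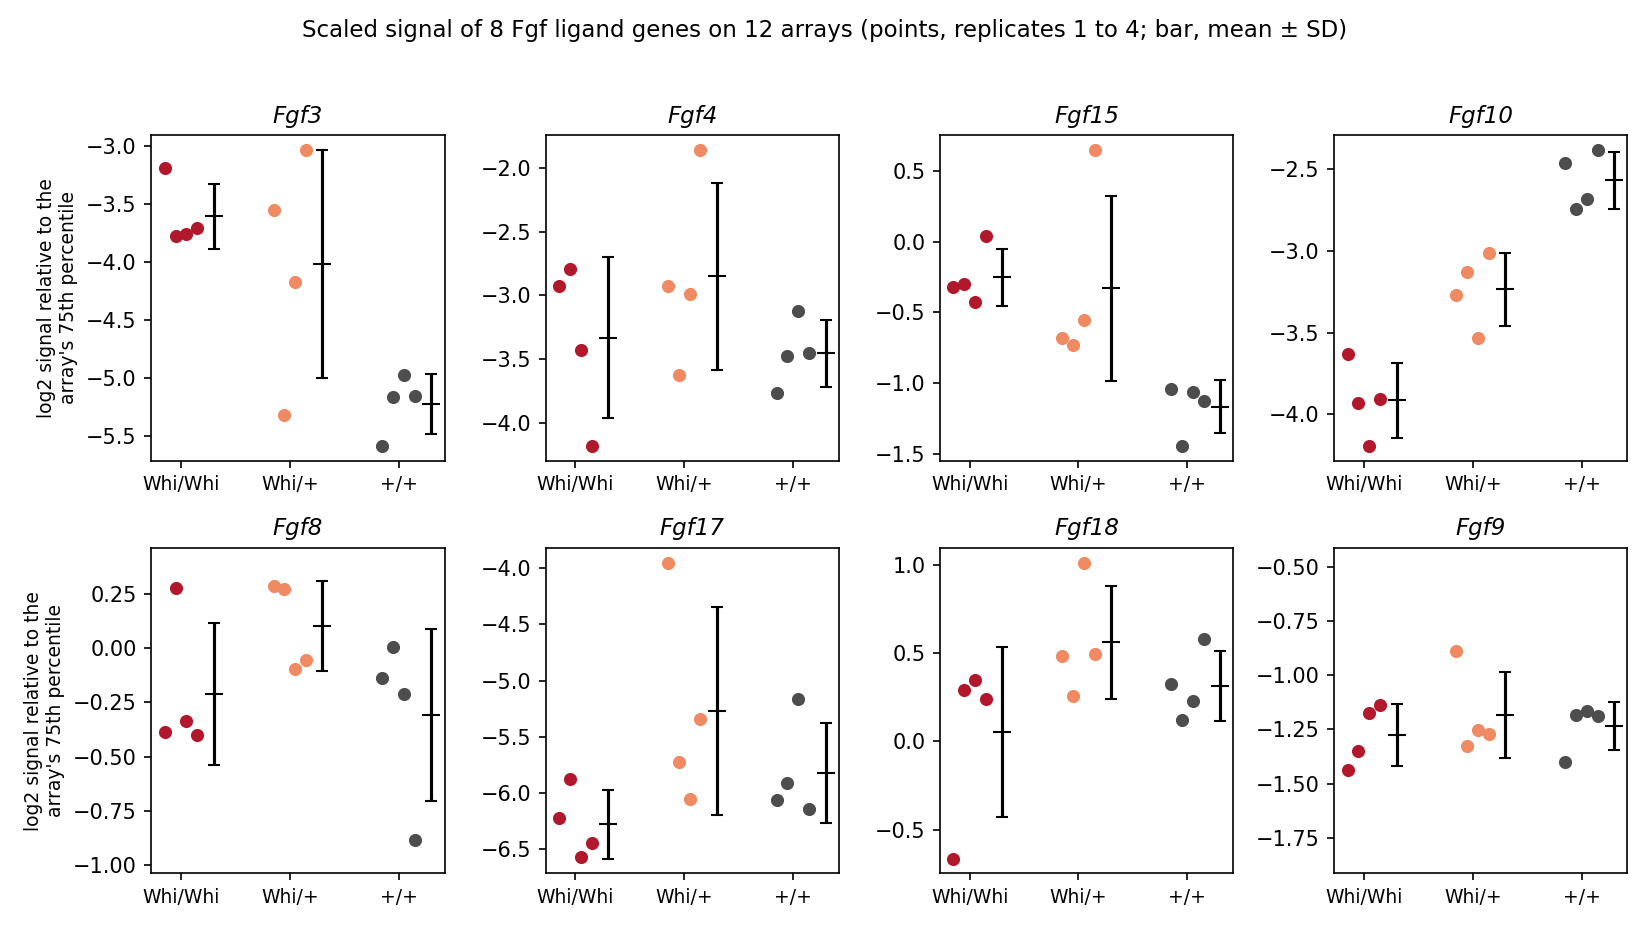
Scaled log2 signal (vertical axis, own range per panel) of the main probe of each ligand on the 12 arrays by genotype, with the mean and SD of 4 arrays beside the points. The Fgf10 arrays of the 3 genotypes do not overlap, whereas Fgf3 and Fgf15 are higher on all homozygous arrays than on all wild-type arrays and spread widely in heterozygotes.

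On the log2 scale the heterozygous Fgf10 mean lay 49.5% of the way from the wild-type to the homozygous mean. The difference was -0.67 ± 0.15 from wild type (adjusted p = 0.232, unadjusted p = 0.000691) and homozygotes differed from heterozygotes by -0.68 ± 0.15 (adjusted p = 0.294, unadjusted p = 0.000595). Neither passed the threshold over all genes. The deviation of the heterozygous mean from the midpoint of the other genotypes was 0.01 ± 0.13, with an interval from -0.27 to 0.28.

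The Fgf10 probe was printed 10 times per array, which gives a measure of technical error that no other ligand has. Spots of an array had an SD of 0.05 to 0.17, after 5 spots marked as outliers were left out on 4 arrays. The highest spot on any homozygous array was -3.45 (replicate 1) and the lowest on any wild-type array was -2.97 (replicate 2), so not even single spots of these genotypes overlapped. Single spots of heterozygous arrays did overlap both, from -3.75 (Chd7Whi/+ replicate 3) to -2.95 (Chd7Whi/+ replicate 4). Within the 3 slides, each of which carried all genotypes, homozygous minus wild type was -1.17, -1.22 and -1.67. Slide positions were unequally filled: position 1 held a wild-type array on all 3 slides and no other genotype. With position as a block the difference was -1.23 and lost its call. That fit takes its wild-type side from Chd7+/+ replicate 3 alone, the only wild-type array at a position that homozygotes share. Heterozygotes shared no position with wild type, so position-blocked values of that comparison are indirect, through homozygotes.

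**Figure D2:**
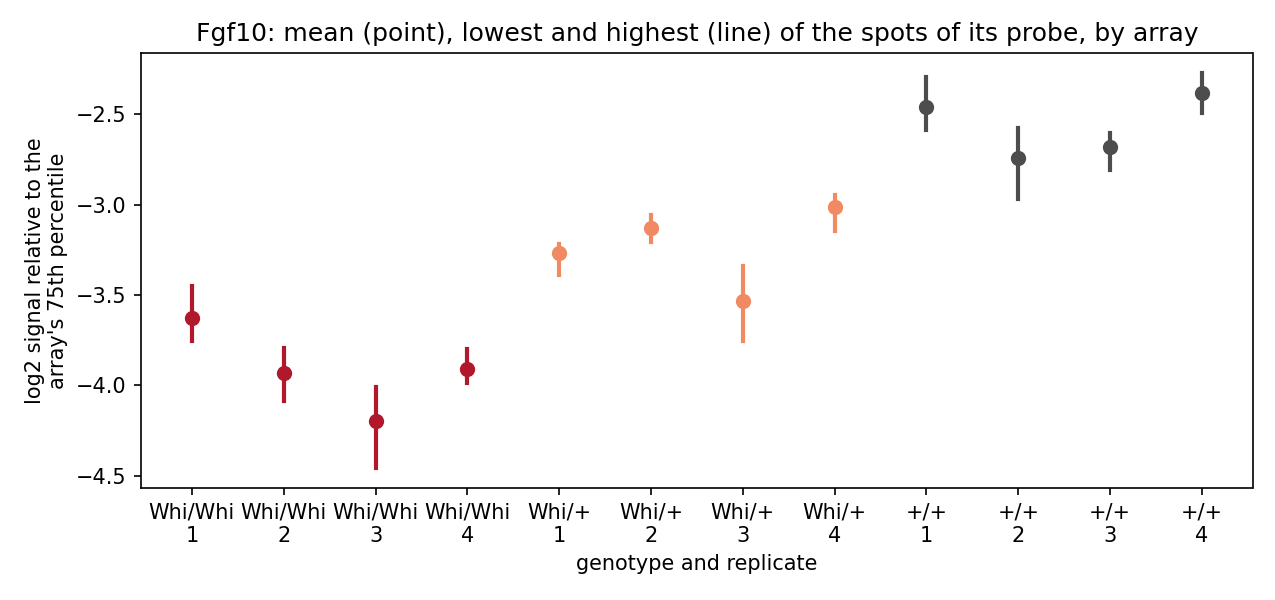
Fgf10 log2 signal relative to the 75th percentile on each array, as the mean (point) and the lowest and highest (line) of the 8 to 10 spots used. Spot ranges of homozygous and wild-type arrays are separate, and heterozygous arrays lie between their means.

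By the measure of likeness used, Pearson's r over the 12 arrays among 14339 other named genes that were well above background on every array, Zfp711 (r = 0.987), Gulp1 (r = 0.962) and Tnnc2 (r = 0.954) had patterns most like Fgf10. Zfp711 encodes a zinc finger protein, Gulp1 an adaptor used in the engulfment of cells, and Tnnc2 the troponin C of fast skeletal muscle. Zfp711 read -0.96 to -0.62 on Chd7Whi/Whi arrays, -0.60 to -0.26 on Chd7Whi/+ arrays and -0.08 to 0.16 on Chd7+/+ arrays. As Fgf10 differs between genotypes, these correlations over arrays are a description.

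Fgf3, a ligand of the hindbrain and of ear induction, was higher in value in homozygotes than in wild type but did not pass the threshold. It read -3.19, -3.77, -3.76 and -3.71 on the Chd7Whi/Whi arrays, -3.55, -5.32, -4.18 and -3.03 on the Chd7Whi/+ arrays, and -5.58, -5.16, -4.98 and -5.15 on the Chd7+/+ arrays. All homozygous arrays lay above all wild-type arrays, while heterozygous arrays ran from within the wild-type range to above the homozygous range. The mean was 3.06-fold higher in homozygotes than in wild type, with a log2 fold change of 1.61 ± 0.38 (interval 0.78 to 2.45; limma, adjusted p = 0.0698). Heterozygotes minus wild type was 1.20 ± 0.38 (adjusted p = 0.241), and homozygotes minus heterozygotes 0.41 ± 0.38 (adjusted p = 0.954).

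The spread of heterozygous arrays, an SD of 0.98 against 0.28 in homozygotes and 0.26 in wild type, enters the shared error of the Fgf3 fit. Fitted with the homozygous and wild-type arrays only, Fgf3 passed (adjusted p = 0.00473), as it did without Chd7Whi/+ replicate 2 (adjusted p = 0.00902), without Chd7Whi/+ replicate 4 (adjusted p = 0.0308) and with array weights (adjusted p = 0.0174). In all, Fgf3 passed in 2 of 12 fits that left out 1 array and in 2 of 13 other settings. Its adjusted p reached 0.9998 over those other settings (limma). The Fgf3 spots were dim, at 87.8 to 188.3 intensity units in homozygotes and 30.8 to 45.7 units in wild type. With normexp background correction, which adds an offset of 50, the log2 fold change was 0.54 ± 0.35 (adjusted p = 0.598).

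Fgf15, expressed in the neural tube and pharyngeal region, gave the same order of homozygous and wild-type arrays. Its values were -0.32, -0.30, -0.42 and 0.04 in Chd7Whi/Whi, -0.68, -0.73, -0.55 and 0.65 in Chd7Whi/+, and -1.04, -1.45, -1.06 and -1.13 in Chd7+/+ embryos. Every homozygous and every heterozygous array lay above every wild-type array, and Chd7Whi/+ replicate 4 was the highest of the 12. The homozygous mean was 1.89-fold that of wild type, a log2 fold change of 0.92 ± 0.26 (interval 0.34 to 1.49; limma, adjusted p = 0.124). For heterozygotes minus wild type the value was 0.84 ± 0.26 (adjusted p = 0.238), and for homozygotes minus heterozygotes 0.08 ± 0.26 (interval -0.50 to 0.65).

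Like Fgf3, Fgf15 was no call with all arrays, and it passed only in fits without some or all heterozygous arrays. These were 1 of 12 fits that left out 1 array and 1 of 13 other settings. Its adjusted p reached 0.9998 over those other settings (limma). Without Chd7Whi/+ replicate 4 the homozygous minus wild-type difference, 0.92 ± 0.13, passed (adjusted p = 0.00585), and with the homozygous and wild-type arrays only it passed as well (adjusted p = 0.0165). Heterozygotes minus wild type was 0.51 ± 0.14 without that array (adjusted p = 0.441). Within slides the homozygous minus wild-type difference was 0.72, 0.96 and 0.94 for Fgf15 and 2.39, 1.30 and 1.42 for Fgf3.

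Fgf4, a ligand of the limb ridge, primitive streak and tail bud, read -2.92, -2.79, -3.43 and -4.18 on Chd7Whi/Whi arrays, -2.93, -3.62, -2.99 and -1.86 on Chd7Whi/+ arrays, and -3.76, -3.47, -3.12 and -3.45 on Chd7+/+ arrays. The genotypes overlapped, and Chd7Whi/+ replicate 4 was again the highest array. Homozygotes differed from wild type by 0.12 ± 0.36 (interval -0.67 to 0.91, adjusted p = 0.893), and heterozygotes by 0.60 ± 0.36 (adjusted p = 0.416), or by 0.27 ± 0.31 without that array.

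Fgf3, Fgf4 and Fgf15 are consecutive genes on mouse chromosome 7 in the RefSeq order, between Ano1, a chloride channel gene, and LTO1. After subtraction of the genotype means, r over the 12 arrays was 0.74 for Fgf3 and Fgf4, 0.58 for Fgf3 and Fgf15, and 0.49 for Fgf4 and Fgf15. Over all 28 pairs of ligands r ran from -0.56 (Fgf10 and Fgf18) to 0.74, and pairs of different chromosomes reached values like those of the neighbours, such as 0.56 for Fgf9 and Fgf17, and 0.44 for both Fgf3 and Fgf17 and Fgf10 and Fgf15. Chd7Whi/+ replicate 4 was the highest of the 12 arrays for Fgf3 (-3.03), Fgf4 (-1.86) and Fgf15 (0.65), and r without that array was not computed. The arrays share slide, scaling and embryo, and these values are descriptive. None of the 7 tested genes on either side passed the threshold, nor did the 3 ligands. The neighbours' homozygous minus wild-type values lay between -0.19 (Cttn) and 0.22 (Fadd, interval 0.01 to 0.43). Their heterozygous minus wild-type values ran from -0.04 (Cttn) to 0.35 (Tpcn2, interval -0.24 to 0.94), with Ppfia1 at 0.33 (interval 0.06 to 0.61; limma, adjusted p = 0.270). Ccnd1, the cyclin gene beyond LTO1, had 0.02 ± 0.13 in homozygotes minus wild type.

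**Figure D3:**
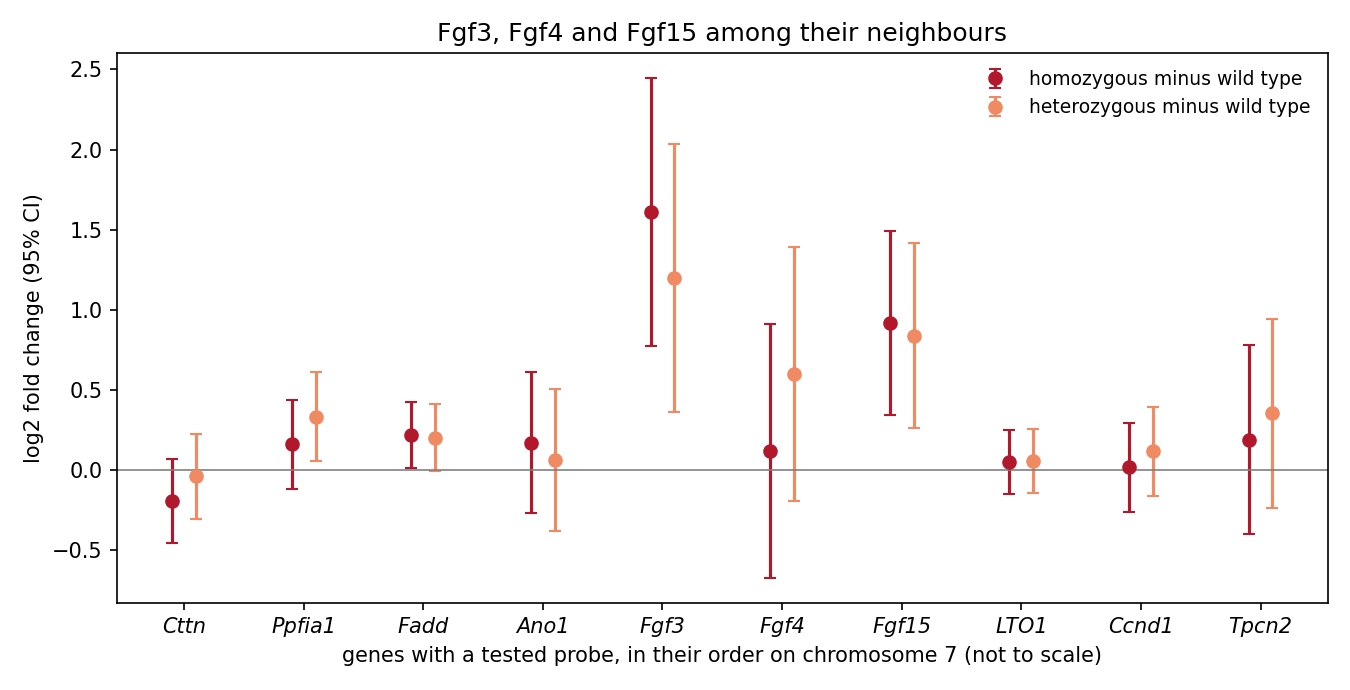
Log2 fold change against wild type with its 95% confidence interval (vertical axis) for genes in their order on chromosome 7, homozygous left of heterozygous for each gene. The intervals of Fgf3 and Fgf15 lie above 0 in both comparisons, as do those of Fadd in homozygotes and Ppfia1 in heterozygotes, and those of Fgf4 reach across 0; no gene of the plot passed the threshold over all tested genes.

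In the Fgf8 subfamily the arrays of the genotypes overlapped, and no comparison passed the adjusted threshold. Fgf8, the ligand of the midbrain-hindbrain boundary, limb ridge and pharyngeal arches, read -0.39, 0.28, -0.33 and -0.40 in Chd7Whi/Whi, 0.29, 0.27, -0.10 and -0.05 in Chd7Whi/+, and -0.14, 0.01, -0.21 and -0.89 in Chd7+/+ embryos. Chd7Whi/Whi replicate 2 stood above the other homozygous arrays and Chd7+/+ replicate 4 below the other wild-type arrays, and the groups overlapped. The homozygous minus wild-type difference was 0.10 ± 0.21 (interval -0.36 to 0.55, adjusted p = 0.844). A second Fgf8 probe gave -0.06 ± 0.26 and followed the first over the arrays with r = 0.92, while the third was well above background on 3 of 12 arrays, 1 of each genotype, and was not tested.

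Fgf17, a weaker partner of Fgf8 at the boundary, was close to background, at 12.5 to 86.7 intensity units, and was well above background on 3 of 4 homozygous arrays. Its values were -6.22, -5.87, -6.57 and -6.44 in Chd7Whi/Whi, -3.95, -5.72, -6.06 and -5.34 in Chd7Whi/+, and -6.06, -5.91, -5.16 and -6.14 in Chd7+/+ embryos. The highest array was Chd7Whi/+ replicate 1, the one with high tail bud markers. Homozygotes minus wild type was -0.46 ± 0.39 (adjusted p = 0.574). Heterozygotes minus wild type was 0.55 ± 0.39 (adjusted p = 0.478), 0.11 ± 0.26 without that array and -0.34 ± 0.59 with array position as a block. Homozygotes minus heterozygotes was -1.01 ± 0.39 (unadjusted p = 0.024, adjusted p = 0.744), and -0.57 ± 0.26 without that array. The part of the tail bud cells in these values was not tested.

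Fgf18, a ligand of the boundary and of skeletal progenitors, read -0.66, 0.29, 0.35 and 0.24 on Chd7Whi/Whi arrays, 0.49, 0.26, 1.01 and 0.50 on Chd7Whi/+ arrays, and 0.33, 0.12, 0.23 and 0.58 on Chd7+/+ arrays. Chd7Whi/Whi replicate 1, the array with the highest yolk sac markers, lay far below the rest. The homozygous minus wild-type difference of -0.26 ± 0.23 (adjusted p = 0.585) became -0.02 ± 0.17 without it. Heterozygotes minus wild type was 0.25 ± 0.23 (adjusted p = 0.579), and -0.09 ± 0.51 with array position as a block. The second probe gave -0.43 ± 0.24 in homozygotes minus wild type (limma, adjusted p = 0.401) with r = 0.92 to the first. Homozygotes minus heterozygotes was -0.51 ± 0.23 on the main probe (limma, unadjusted p = 0.046, adjusted p = 0.826). On the second probe it was -0.59 ± 0.24 (limma, unadjusted p = 0.032, adjusted p = 0.835). Fits that left out 1 array gave -0.61 to -0.27 on the main probe.

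Fgf9, made by the mesothelium of the lung and the lining layers of the heart, varied least between arrays. It read -1.44, -1.35, -1.17 and -1.14 in Chd7Whi/Whi, -0.89, -1.33, -1.25 and -1.27 in Chd7Whi/+, and -1.40, -1.18, -1.16 and -1.19 in Chd7+/+ embryos. With a homozygous minus wild-type difference of -0.04 ± 0.12, its interval of -0.30 to 0.21 was the narrowest of the 8.

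**Figure D4:**
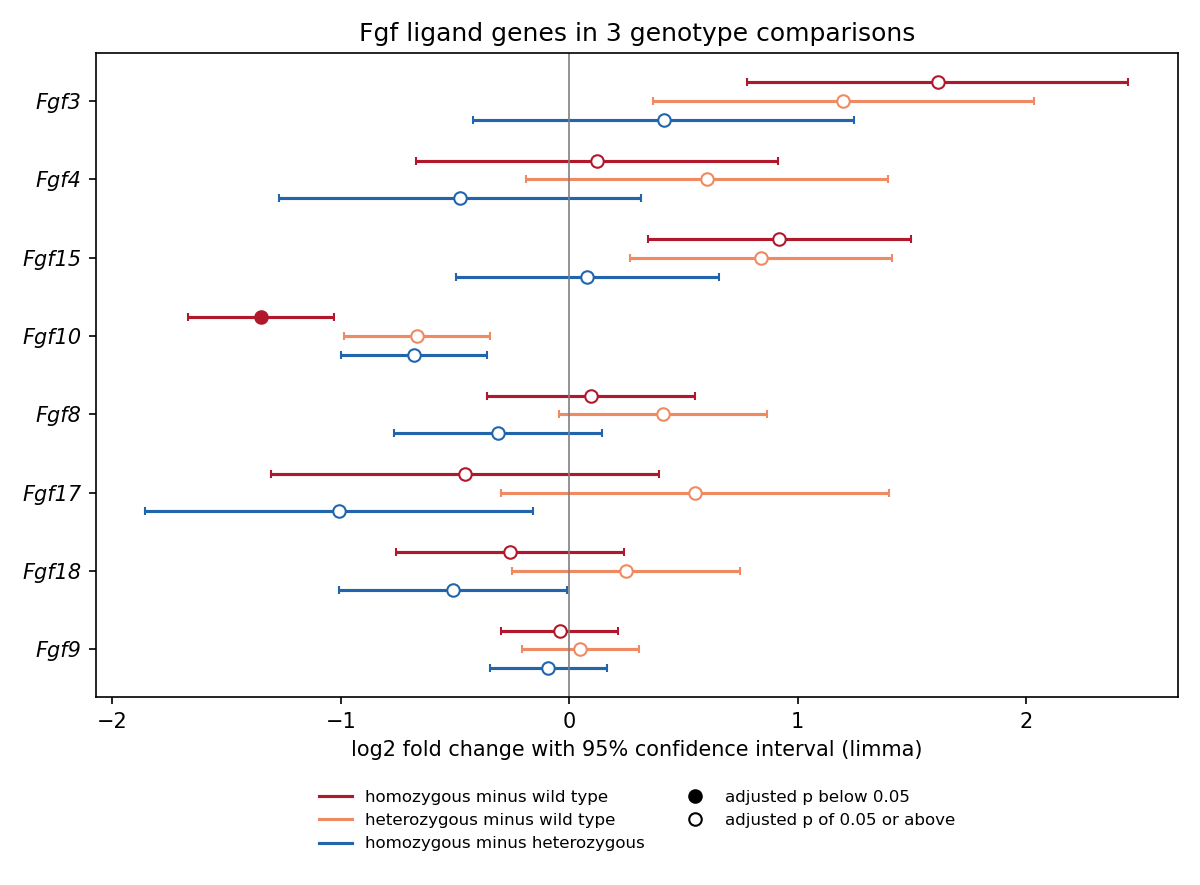
Log2 fold change (horizontal axis) with 95% confidence interval of each ligand in the 3 comparisons between genotypes. Filled points have an adjusted p below 0.05 over all tested genes; the single filled point is Fgf10 in homozygous minus wild type, at -1.35.

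Counted over the ligands, 4 were higher and 4 lower in value in homozygotes than in wild type, with a median log2 fold change of 0.03 beside 0.02 over all tested genes. The counts were 2 higher and 6 lower with array position as a block (median -0.14) and without Chd7Whi/Whi replicate 2 (median -0.06). They were 3 and 5 without Chd7+/+ replicate 4 (median -0.06) and with normexp (median -0.13), where Fgf4 turned to -0.13. At an unadjusted p under 0.05, 2 were higher (Fgf3 and Fgf15) and 1 lower (Fgf10), where 17.0% of all tested genes passed that level. The same 3 genes had arrays that did not overlap between homozygotes and wild type, a property of 14.1% of all tested genes.

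Against wild type, heterozygotes had 7 ligands higher and 1 lower in value, a median of 0.48 beside 0.04 over all tested genes, and no call, where 0.00886% of tested genes were called. The ligand median was 0.31 without Chd7Whi/+ replicate 1, 0.37 without Chd7Whi/+ replicate 4 and 0.19 with normexp. It was -0.03 with array position as a block, where 4 were higher and 4 lower. Heterozygotes and wild type shared no position, so that last value is indirect, through homozygotes. Fgf9, at 0.05 ± 0.12, turned to -0.022 with median scaling. At the unadjusted level 3 ligands passed (15.4% of all tested genes), again Fgf3, Fgf15 and Fgf10. Arrays did not overlap for Fgf10 and Fgf15 (6.67% of all tested genes). Between homozygotes and heterozygotes 2 ligands were higher and 6 lower, with a median of -0.40 beside -0.03, and none was called (0.0133% of tested genes were). The median was -0.22 without Chd7Whi/Whi replicate 4, -0.26 without Chd7Whi/Whi replicate 1, -0.26 without Chd7Whi/+ replicate 4, -0.23 with array position and -0.18 with title number as a block. Without Chd7Whi/+ replicate 2 all 8 were lower in value. With all arrays, 3 ligands passed the unadjusted level in this comparison, all lower in homozygotes: Fgf10, Fgf18 and Fgf17, the last close to background. The largest p among these was that of Fgf18 (limma, unadjusted p = 0.046), with rank 1240 among all tested genes. Fgf10 alone did not overlap between homozygotes and heterozygotes (2.98% of all tested genes).

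The heterozygous mean lay above the midpoint of the other genotypes for all 8 ligands. It did so for 7 of 8 with normexp, with quantile or median scaling (Fgf10 at -0.047 and -0.053), with slide or array position as a block, with array weights and in 6 of 12 fits that left out 1 array. The median was 0.38 beside 0.03 over all tested genes, and it was 0.15 without Chd7Whi/+ replicate 4, 0.24 with normexp and 0.12 with array position as a block. The difference ranged from 0.01 for Fgf10 to 0.78 ± 0.34 for Fgf17, the only ligand with an unadjusted limma p under 0.05, a level that 7.82% of all tested genes passed. Fits that left out 1 array gave 0.34 to 1.04 for Fgf17, whose signal was close to background. None of the 8, and 0 of all tested genes (0%), passed the adjusted threshold in limma; 1764 passed at the unadjusted level. These comparisons share arrays, so their values are not independent of one another.

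The rest of the pathway contained 1 call, in homozygous minus wild type, where 1.35% of all tested genes were called. Etv1, an Ets transcription factor induced by Fgf signalling, fell by 0.64 on the log2 scale in homozygotes (SE 0.10, 1.56-fold; limma, adjusted p = 0.0104). Its group means were -0.59 in Chd7Whi/Whi, -0.34 in Chd7Whi/+ and 0.05 in Chd7+/+ embryos. The call was lost with array position as a block, which draws on Chd7+/+ replicate 3 alone for wild type. It was also lost with title number as a block (limma, adjusted p = 0.215). Among the 13 targets and feedback inhibitors it was the only call, and 5 were higher and 8 lower in value in homozygotes than in wild type, with a median of -0.0040; 8 were higher and 5 lower without Chd7Whi/Whi replicate 4 or with title number as a block. All 13 were lower in value in homozygotes than in heterozygotes, with a median of -0.20 beside -0.03 over all tested genes and no call. That count was 10 of 13 with title number as a block, and 12 of 13 with quantile or median scaling, with array position as a block, with array weights, and without Chd7Whi/Whi replicate 3 or Chd7Whi/+ replicate 4. Dusp6, a phosphatase that limits the MAP kinase Erk, had -0.40 ± 0.14 (adjusted p = 0.707).

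No other pathway list held a call in any of the 3 comparisons. Of 14 other Fgf genes, 10 were tested and 7 of them were lower in value in homozygotes than in wild type (median -0.18). The smallest p was that of Fgf7, a ligand of the Fgf10 subfamily made by mesenchyme, at -0.80 ± 0.18 (adjusted p = 0.0605). Fgf16, Fgf20, Fgf21 and Fgf22 were not well above background on all arrays of any genotype. Of 6 tested receptors and co-receptors 4 were higher and 2 lower (median 0.16), Fgfr3 having -0.36 ± 0.14 (adjusted p = 0.235). Fgfr2, whose epithelial form binds Fgf3 and Fgf10, had 0.31 ± 0.14 in heterozygotes minus wild type (adjusted p = 0.314).

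Among 17 heparan sulfate enzymes and Fgf-binding proteins, 6 were higher and 11 lower in homozygotes than in wild type (median -0.01). The heparan sulfate sulfotransferase gene Hs6st2 had -0.39 ± 0.11 (adjusted p = 0.111), and Fgfbp3, a carrier of Fgfs, had -0.56 ± 0.11 in homozygotes minus heterozygotes (adjusted p = 0.226). Of 15 genes of the Ras and MAP kinase cascade 9 were higher and 6 lower (median 0.01), and the adaptor gene Gab1 had 0.30 ± 0.13 (adjusted p = 0.275).

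**Figure D5:**
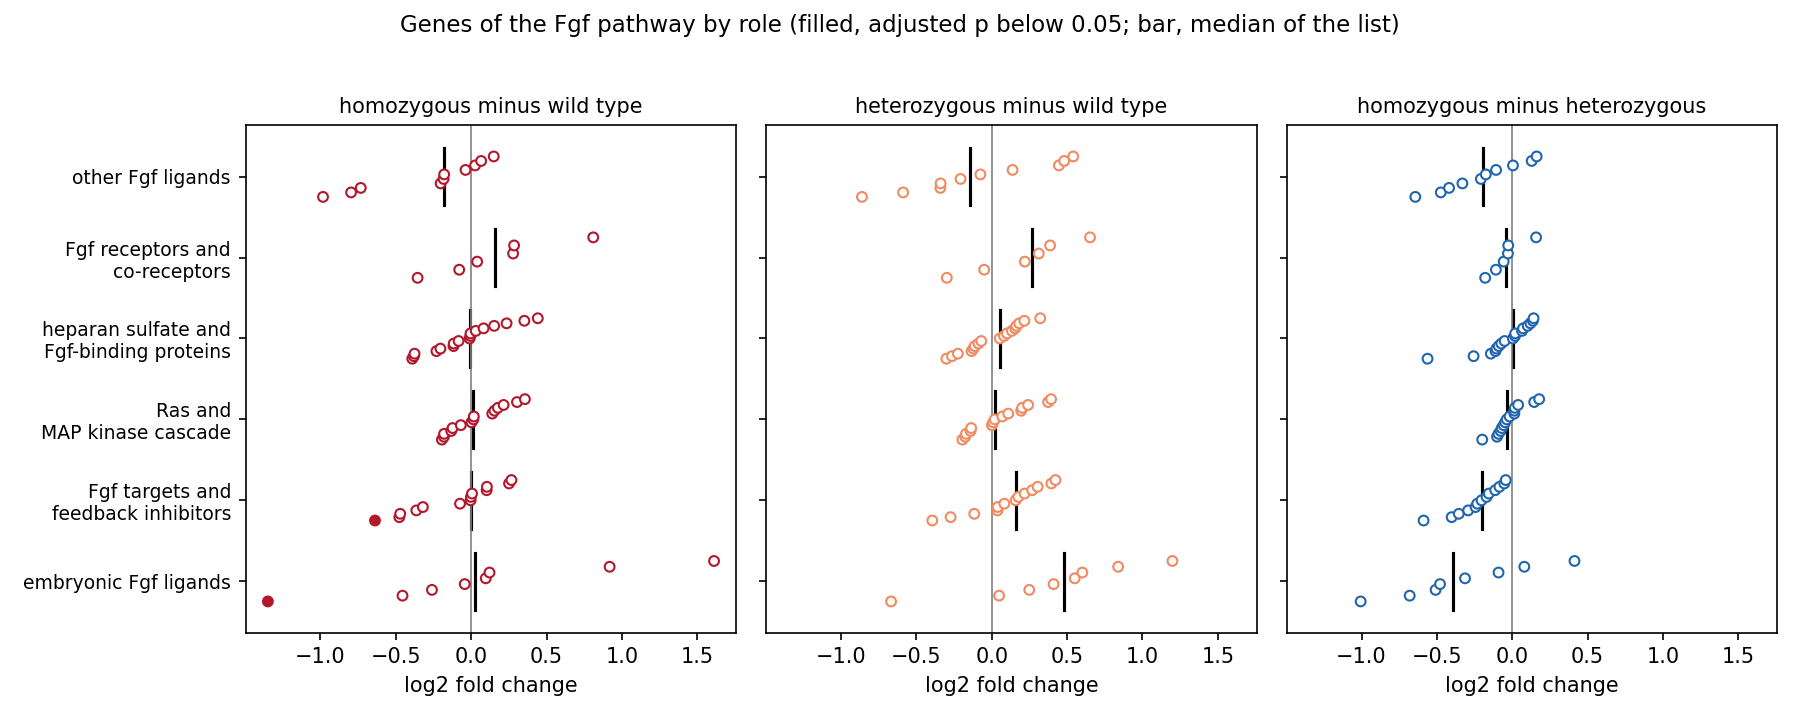
Log2 fold changes (horizontal axis) of the tested genes of 5 pathway lists and of the 8 ligands (bottom row) in 3 comparisons; bars are list medians. Filled points, the calls, are Etv1 and Fgf10 in homozygous minus wild type.

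Markers of the places where these ligands are made were measured on the same arrays. In the pharyngeal arch and second heart field list 7 of 9 genes were lower in value in homozygotes than in wild type (median -0.27), and Isl1, a factor of second heart field progenitors and motor neurons, fell by 0.80 on the log2 scale (SE 0.15; limma, adjusted p = 0.0306). Isl1 lost its call in 5 of 12 fits that left out 1 array: Chd7Whi/Whi replicate 2 or 3, or Chd7+/+ replicate 1, 2 or 4, with an adjusted p of up to 0.101. It also lost it with normexp, with no filter on dim probes, and with position or title number as a block. Isl1 was the only call of its list, beside 1.35% of all tested genes called in this comparison. Of 8 limb bud markers 5 were lower (median -0.20), Sp8, a zinc finger factor of the limb ridge and forebrain, having -0.55 ± 0.15 (adjusted p = 0.112). Of 9 otic markers 5 were lower (median -0.08). The summed signal of the limb list was 776% to 912% of the 75th percentile on Chd7Whi/Whi and 786% to 1016% on Chd7+/+ arrays, the pharyngeal sum 3904% to 4706% on Chd7Whi/Whi and 4009% to 5795% on Chd7+/+ arrays, and the otic sum 2889% to 3884% on Chd7Whi/Whi and 3093% to 4835% on Chd7+/+ arrays. A sum adds probes of different brightness, and 1 gene shared by both lists, Eya1, made up 67.3% to 79.0% of the pharyngeal and 89.2% to 94.0% of the otic sum on these arrays. A decrease of dimmer markers such as Isl1 hardly shows in such sums. Without the brightest gene of each list, an alternative chosen after seeing the data, the pharyngeal sum was 972% to 1327% on Chd7Whi/Whi and 1207% to 1266% on Chd7+/+ arrays, and the otic sum 236% to 311% on Chd7Whi/Whi and 288% to 333% on Chd7+/+ arrays. The limb sum without Trp63, a gene of surface ectoderm, was 482% to 546% on Chd7Whi/Whi and 555% to 619% on Chd7+/+ arrays. These ranges did not overlap, but that of Chd7Whi/+ arrays, 470% to 867%, spanned both. The 3 limb markers higher in value in homozygotes than in wild type were Tbx5 (0.45 ± 0.24), Sall4 (0.29 ± 0.12) and Trp63 (0.02 ± 0.21). The part of these tissues in the Fgf10 difference was not tested.

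Of the 10 midbrain-hindbrain boundary genes 6 were higher (median 0.02), the paired box gene Pax8, also on the otic list, having 0.78 ± 0.24 (adjusted p = 0.149), and their sum was 1028% to 1433% on Chd7Whi/Whi and 986% to 1329% on Chd7+/+ arrays. Of 8 tail bud markers 5 were lower (median -0.06), and Rspo3, a Wnt agonist, had -1.45 ± 0.37 (adjusted p = 0.0852); against heterozygotes all 8 were lower in value (median -0.65, or -0.31 without Chd7Whi/+ replicate 1). Of 8 forebrain markers 6 were lower and 2 higher (median -0.27), again with Sp8 at the smallest p. Six3, 1 of the 2 higher, had the largest difference of the list, 0.87 ± 0.26 (limma, adjusted p = 0.142). The sum of the 8 was 338% to 423% on Chd7Whi/Whi and 367% to 556% on Chd7+/+ arrays.

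The lists of other tissues held no call. All 7 yolk sac markers were higher in value in homozygotes than in wild type (median 0.60), with Ttr, the thyroid hormone carrier, at 1.11 ± 0.92; without Chd7Whi/Whi replicate 1 the median was -0.26, with 5 of 7 lower. Of 7 primitive blood markers 6 were lower (median -0.15; Hbb-bh1, an embryonic globin, at -0.31 ± 0.38), and of 5 trophoblast markers 4 were higher (median 0.35; Ascl2, a trophoblast factor, at 0.75 ± 0.44). Blood sums were 8304% to 27830% on Chd7Whi/Whi and 10078% to 29963% on Chd7+/+ arrays, and trophoblast sums 2288% to 3459% on Chd7Whi/Whi and 2009% to 4446% on Chd7+/+ arrays. Gcm1, the 1 trophoblast marker lower in homozygotes (-0.23 ± 0.23), made up 95.8% to 99.0% of those sums. The 4 others summed to 46.5% to 144% on Chd7Whi/Whi and 43.6% to 67.5% on Chd7+/+ arrays. The part of yolk sac, blood or trophoblast RNA in the ligand values was not tested.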

How the data were processed

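Single-channel (Cy3) Agilent arrays were read out with Agilent Feature Extraction 10.7.3.1, per the submitters' processing notes, where limma is listed too. The values used are the deposited intensity of each spot after that software's own background correction, per the file headers, and they had not been scaled between arrays; the authors' value table held the same intensity values.

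Control spots (1377) and spots marked as non-uniform or outliers (171 to 386 per array) were left out, none was saturated, and log2 intensity minus the array's 75th percentile was averaged over the spots of a probe. Probes were named by accession in a RefSeq table (26055 of 39429 probes, GRCm38.p6). The brightest probe stood for each gene, and it was tested where 1 genotype or more had it well above background on each array. One model of 3 genotype means over 12 arrays was fitted with limma 3.58.1 in R 4.3.3, with Benjamini-Hochberg adjustment over 22563 genes or identifiers and a threshold of 0.05, as adjusted p-values here. The same fit gave the errors (SE, n = 4 arrays per genotype), whose precision the number of arrays limits. The procedure was checked on simulated data with independent normal errors. These held no slide, position or outlying-array effects, so the check does not cover them.

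The ligands and the 14 gene lists were chosen with earlier results of these data known. Named genes were all ligands on every probe, list members that passed (or the one with the smallest p, given as a value), and the 3 genes most correlated with a ligand that passed. Alternatives were another background correction, quantile and median scaling, the value table, filters, every probe, slide, position or title number as a block, a fit of 2 genotypes, trend and robust variance, array weights, and the omission of each array in turn. Samples of a genotype are biological replicates, per the labels, and replicate numbers follow accession order and only name an array. Figures were drawn with matplotlib 3.10.9.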

Additional observations from a re-analysis of the deposited data

Results flagged for a closer look

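Of 33 groups of 4 arrays, formed from the 11 probes and 3 genotypes, 5 held an array farther from the rest than Dixon's 95% critical value allows; chance gives about 1 group in 20. For Fgf3, Chd7Whi/Whi replicate 1 was high at -3.19. For the main Fgf8 probe, Chd7Whi/Whi replicate 2 was high at 0.28. Fgf9 was low on Chd7+/+ replicate 1, at -1.40. Fgf15 was high on Chd7Whi/+ replicate 4, at 0.65, and Fgf18 on its main probe was low on Chd7Whi/Whi replicate 1, at -0.66. Neither the second probe of Fgf8 nor that of Fgf18 passed the critical value on the same array.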

How the results depend on the processing

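The fall of Fgf10 in homozygotes against wild type kept its direction under all alternatives run and its call in 12 of 12 leave-one-out fits (-1.44 to -1.26) and 11 of 13 other settings; it lost the call with array position as a block (-1.23, adjusted p = 0.437) and with title number as a replicate block (-1.49, adjusted p = 0.0597). Ligands called in that comparison numbered 0 under each of these blocks, 3 with only the genotypes compared, 2 with array weights and 1 to 3 when an array was left out. Title numbers are shared by 11 pairs of arrays of different genotypes, whose residuals correlated at a median of 0.02 (-0.32 to 0.29). Pairs without a shared number had a median of 0.02, and the numbers were not taken to pair the arrays. These values cannot decide the question, because subtracting genotype means that hold arrays of the same number removes part of a shared effect. Chd7Whi/Whi replicates 1 and 4 have numbers found on no other array, so a fit with this block draws no genotype difference from them. The position block draws homozygous minus wild type from Chd7+/+ replicate 3 alone on the wild-type side. It gives heterozygous minus wild type only through homozygotes. Calls lost and signs changed under that block therefore cannot decide whether position has an effect.

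Genes called among all tested in homozygotes against wild type (305) numbered 91 with normexp, 188 with no filter on dim probes, 20 with position, 19 with title number as a replicate block, 533 with array weights and 112 to 447 when an array was left out. For heterozygotes against wild type (2) the count was 1 with normexp, with the filter on all arrays, with only the genotypes compared and with trend and robust variance, 5 with no filter and with slide as a block, 0 with title number, and 0 to 3 when an array was left out. For homozygotes against heterozygotes (3) it was 0 with normexp, position, title number and only the genotypes compared, 1 with quantile normalization, 7 with array weights and 1 to 6 when an array was left out.

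The following differences changed sign, and none of them was a call. Fgf10 in heterozygotes minus the midpoint was -0.062 with normexp, -0.047 with quantile normalization, -0.053 with median scaling, -0.040 with slide blocked and -0.056 with array weights (leaving out an array, -0.069 to 0.11). Homozygotes minus heterozygotes for Fgf15 was -0.043 with slide and -0.026 with title number as a replicate block (-0.055 to 0.41), and for Fgf3, 0.41 with all arrays, -0.020 to 0.74. With position as a block, heterozygotes minus wild type was -0.34 for Fgf17 (0.55 without the block), -0.088 for Fgf18 (0.25 without it) and -0.081 for Fgf9, the last also -0.058 with normexp and -0.022 with median scaling (-0.050 to 0.096). Homozygotes minus wild type was -0.13 with normexp and -0.053 with position for Fgf4 (-0.058 to 0.40), -0.15 with position for Fgf8 (-0.096 to 0.20), and -0.098 to 0.011 for Fgf9 when an array was left out. Fgf9 in heterozygotes minus the midpoint was -0.010 with position (-0.028 to 0.12), and in homozygotes minus heterozygotes -0.14 to 0.0071. The cause was not tested. Fgf17 has no value with the filter on all arrays. Its signal near background and the dim wild-type spots of Fgf3 limit both values.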
